A study of Mus musculus with 2 samples.

Results

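Apoe and 9 genes of cholesterol efflux and lysosomal cholesterol release were followed through single-cell RNA sequencing of mouse aorta: Apoe, Abca1, Abcg1, Pltp, Nr1h2, Nr1h3, Mylip, Npc1, Npc2 and Lipa. They were chosen by name for their roles, with earlier results of these data known. All 10 were among the 14714 genes of the deposited count table. There were 2 libraries, 1 per genotype, both from mice on a western diet for 12 weeks. The first was Apoe-/- (Apoe knockout), and the other was EC-iDKO/Apoe-/- (double knockout), so both carried the Apoe knockout. EC-iDKO is known from this mouse line as an inducible loss of the epsins Epn1 and Epn2 in endothelial cells. For the driver and timing of that deletion, the Apoe allele, and the age, sex and number of mice per library, nothing is given in the sources used here.

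Cholesterol leaves a cell in steps. Lysosomal acid lipase (Lipa) frees cholesterol from lipoprotein esters, and Npc2 hands it to the membrane protein Npc1, which exports it from the lysosome. Abca1 and Abcg1 then pass cholesterol across the plasma membrane to lipid-poor apolipoproteins, of which Apoe is one, and to high-density lipoprotein. The liver X receptors Nr1h3 (LXR alpha) and Nr1h2 (LXR beta) sense oxysterols and switch on Abca1, Abcg1, Pltp, Mylip and, in macrophages, Apoe.

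The Apoe knockout library held 13304762 UMIs (unique molecular identifiers, each counting 1 captured molecule) in 2428 cells, with a median of 3769.5 per cell. The double knockout library held 6853185 UMIs in 5489 cells, with a median of 769. Of the cell barcodes, 5 occurred in both libraries. Levels are UMIs summed over a population and scaled to 1000000 UMIs of that population (CPM), and 3' tags count molecules, so no scaling for gene length applies. Populations were the deposited SMC (smooth muscle) class without cluster 15, the fibroblast class, and clusters 7, 8, 9, 10, 13 and 15 by number. Of cluster 9, ratios used the cells in the deposited EC (endothelial) class. Their 10 endothelial markers summed to 2450 CPM in the Apoe knockout and 4315 CPM in the double knockout. Their 10 smooth muscle markers summed to 32534 and 30985 CPM. Cluster 13 carried macrophage markers, with C1qa at 2363 CPM in the Apoe knockout and 574 CPM in the double knockout, but Acta2 of smooth muscle was at 6423 and 14872 CPM there. Macrophage RNA was unequal outside cluster 13 as well: 26.0% of Apoe knockout SMC cells and 0.897% of double knockout SMC cells had a UMI of C1qa, C1qb, C1qc, Lyz2 or Cd74. In cluster 9 these shares were 79.2% and 3.14%. Such shares rise with depth, and the medians were 4892 and 769.5 UMIs per SMC cell and 2132.5 and 711 per cluster 9 cell. Scaled for depth, 11 macrophage markers summed to 95.7 and 14.2 CPM in SMC cells and to 2277 and 43.7 CPM in cluster 9. With 1 library per genotype there is no test between genotypes. A member is called higher or lower where the CPM ratio, double knockout over Apoe knockout, was at least 1.5-fold from 1 with a 95% interval that left out 1. At least 20 UMIs over both libraries were also needed. All intervals cover counting error only.

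Apoe, the apolipoprotein named in the genotype of both libraries, still gave UMIs in both. The Apoe knockout held 145 Apoe UMIs (10.9 CPM, Poisson interval 9.20 to 12.8) and the double knockout 58 (8.46 CPM, 6.43 to 10.9). Apoe lies on chromosome 7 of GRCm38, chr7:19696109-19699188 on the minus strand, with 4 exons, and its last exon (995 bases, chr7:19696109-19697103) holds the 3' end that these tags read. Tags of the 3' end do not read the exons before it, so Apoe UMIs are no check of the genotype. In the epsins, Epn1 was at 33.0 and 27.4 CPM over the whole libraries, and Epn2 at 74.3 and 108 CPM. In cluster 9 there were 9 and 2 UMIs of Epn1 and 20 and 25 of Epn2, too few for a check of the deletion, and tags outside a deleted part would not show it.

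Most of the remaining Apoe transcript in the double knockout, 42 of 58 UMIs, came from the deposited EC class. Cluster 19, an endothelial cluster of 67 double knockout cells with Pecam1 at 2337 CPM and Cdh5 at 698 CPM, held 29 of the 58 Apoe UMIs (50.0%). It held 1.50% of all UMIs of that library, and its 10 endothelial markers summed to 5071 CPM beside 7621 CPM for 10 smooth muscle markers. The Apoe level there was 281 CPM (188 to 404), and the intervals of the other 18 clusters with at least 30 cells lay below it. Cluster 9 followed with 12 UMIs at 44.5 CPM (23.0 to 77.7), and the median over 19 clusters was 1.61 CPM. Apoe UMIs lay in 16 of the 67 cells (23.9%, Clopper-Pearson interval 14.3 to 35.9%), against 7 of 4348 SMC cells (0.161%, 0.0648 to 0.331%), with medians of 1280 and 769.5 UMIs per cell. With each cell thinned to 1000 UMIs, 11 of 42 cluster 19 cells and 1 of 1500 SMC cells kept an Apoe UMI, after 25 and 2848 shallower cells were left out. The highest cell held 5 Apoe UMIs, and without the 2 highest cells the level was 220 CPM. All 11 macrophage markers were at 0 in these 67 cells. Cluster 19 had 9 Apoe knockout cells with 0 Apoe UMIs, which allows up to 117 CPM, so no ratio was formed for it.

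In the Apoe knockout, where cluster 19 had too few cells to be ranked, cluster 9 led the clusters with at least 30 cells with 20 Apoe UMIs at 73.6 CPM (44.9 to 114), above the intervals of 15 of the other 18 clusters. Cluster 14, which holds most of the fibroblast class, followed with 20 UMIs at 37.1 CPM (22.7 to 57.3), and the intervals of these neighbours met. Despite the class name, cluster 14 had pericyte markers at 4723 CPM, fibroblast markers at 3213 CPM and smooth muscle markers at 25365 CPM. Macrophage cluster 13 was at 15.0 CPM (8.0 to 25.7) with 13 UMIs, inside the interval of cluster 15 above it. Apoe was thus not highest in the cluster with the macrophage markers, although macrophages are a classical source of this apolipoprotein.

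**Figure D1:**
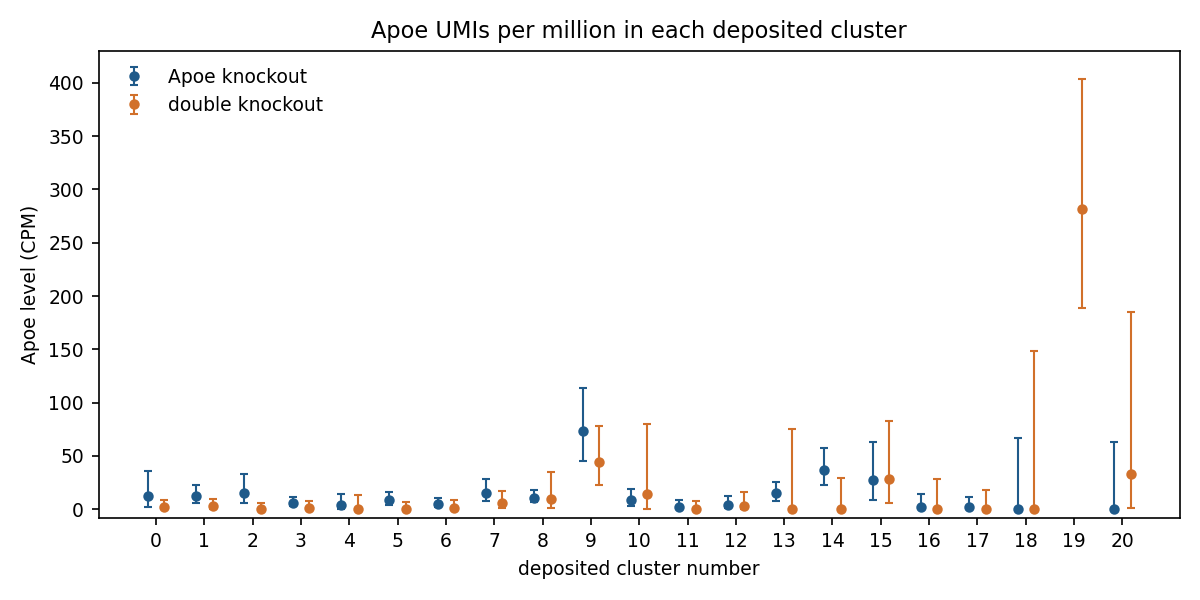
Apoe level in CPM (y axis) in each deposited cluster (x axis, by number) with at least 20 cells, for the Apoe knockout (blue) and the double knockout (orange). Points are the summed level and bars the 95% Poisson interval. Cluster 19 of the double knockout stands at 281 CPM, and cluster 9 leads the Apoe knockout at 73.6 CPM.

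Between the genotypes, Apoe was lower in smooth muscle of the double knockout. SMC cells held 55 Apoe UMIs in the Apoe knockout (6.42 CPM) and 7 in the double knockout (1.28 CPM), a ratio of 0.199 (0.0764 to 0.438). The ratio was 0.20 over cells with no UMI of the 5 macrophage genes named above. Over the whole libraries the Apoe ratio was 0.777 (0.563 to 1.06), and without cluster 19, a comparison chosen after seeing the data, it was 0.393 (0.254 to 0.589). With clusters weighted by their mean share of UMIs it was 0.582 (0.412 to 0.822), which is past the rule, and over cells of 1000 or more UMIs whose mitochondrial share was below 10% it was 1.0 (0.70 to 1.41). In cluster 9 the ratio was 0.670 (0.297 to 1.45), from 19 and 12 UMIs. The fibroblast class held 20 and 0 UMIs, a ratio of at most 0.758 against a floor of 3 UMIs, which is short of the 1.5-fold rule. Cluster 13 held 13 and 0 UMIs, and at 53 double knockout cells a count of 0 allows up to 75.6 CPM, so this depth could not show a difference.

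The membrane transporters Abca1 and Abcg1 and the phospholipid transfer protein Pltp, which remodels high-density lipoprotein and moves phospholipid between particles, had similar patterns across cells. In the Apoe knockout each was highest in cluster 13, with an interval above those of the 18 other clusters with at least 30 cells. Abca1 stood at 373 CPM there (334 to 416), Abcg1 at 301 CPM (265 to 339) and Pltp at 639 CPM (587 to 695). The median cluster had 44.8, 4.07 and 18.5 CPM. Cluster 13 supplied 67.4% of the Abcg1, 54.9% of the Pltp and 32.7% of the Abca1 UMIs of that library from 6.50% of all UMIs. In the double knockout it supplied 11.5%, 7.46% and 0.826%, from 0.712% of all UMIs. Among these clusters endothelial cluster 9 came second for all 3 genes in the Apoe knockout, at 184 CPM of Abca1, 62.5 CPM of Abcg1 and 250 CPM of Pltp, and for Abca1 and Abcg1 its interval met that of the next cluster. Its EC class cells had macrophage markers at 2277 CPM beside endothelial markers at 2450 CPM in that library. The part of macrophage RNA in these levels was not tested.

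The promoters of Abca1 and Pltp are shown because both genes follow this pattern and both are classical LXR targets. Each line gives the 250 bases before the RefSeq start (GRCm38.p6, minus strand), Abca1 at chr4:53159896-53160145 and Pltp at chr2:164857709-164857958, and capitals mark an E-box.
Abca1: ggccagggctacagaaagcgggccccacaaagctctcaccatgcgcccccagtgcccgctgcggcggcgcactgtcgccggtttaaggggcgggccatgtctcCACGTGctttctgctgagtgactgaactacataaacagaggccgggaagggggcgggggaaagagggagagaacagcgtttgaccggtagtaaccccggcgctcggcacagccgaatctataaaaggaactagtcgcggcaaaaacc
Pltp: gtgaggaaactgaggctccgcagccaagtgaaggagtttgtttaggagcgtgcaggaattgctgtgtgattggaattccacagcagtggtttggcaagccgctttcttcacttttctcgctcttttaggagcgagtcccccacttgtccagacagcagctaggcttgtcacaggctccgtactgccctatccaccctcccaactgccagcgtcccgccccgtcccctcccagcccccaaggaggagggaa
The E-box CACGTG lay at -147 to -142 of Abca1 and in 6.02% of all 32851 promoters of that length, with both strands searched for this and the next motifs. The textbook LXR element DR4, a direct repeat of AGGTCA with 4 bases of any kind between, lay in 0.0152% of promoters, and the classical sterol regulatory element (SRE) in 0.0731%. Neither spelling was found in the windows of the 8 members with an entry, which says only that these letters are absent there. DR4 in this spelling lay in 5 of 32851 promoters, so its absence was likely beforehand. Looser spellings of both elements were not searched, and the lines shown may hold them unmarked. No motif overlapped another. Abcg1 and Npc1 had no entry.

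**Figure D2:**
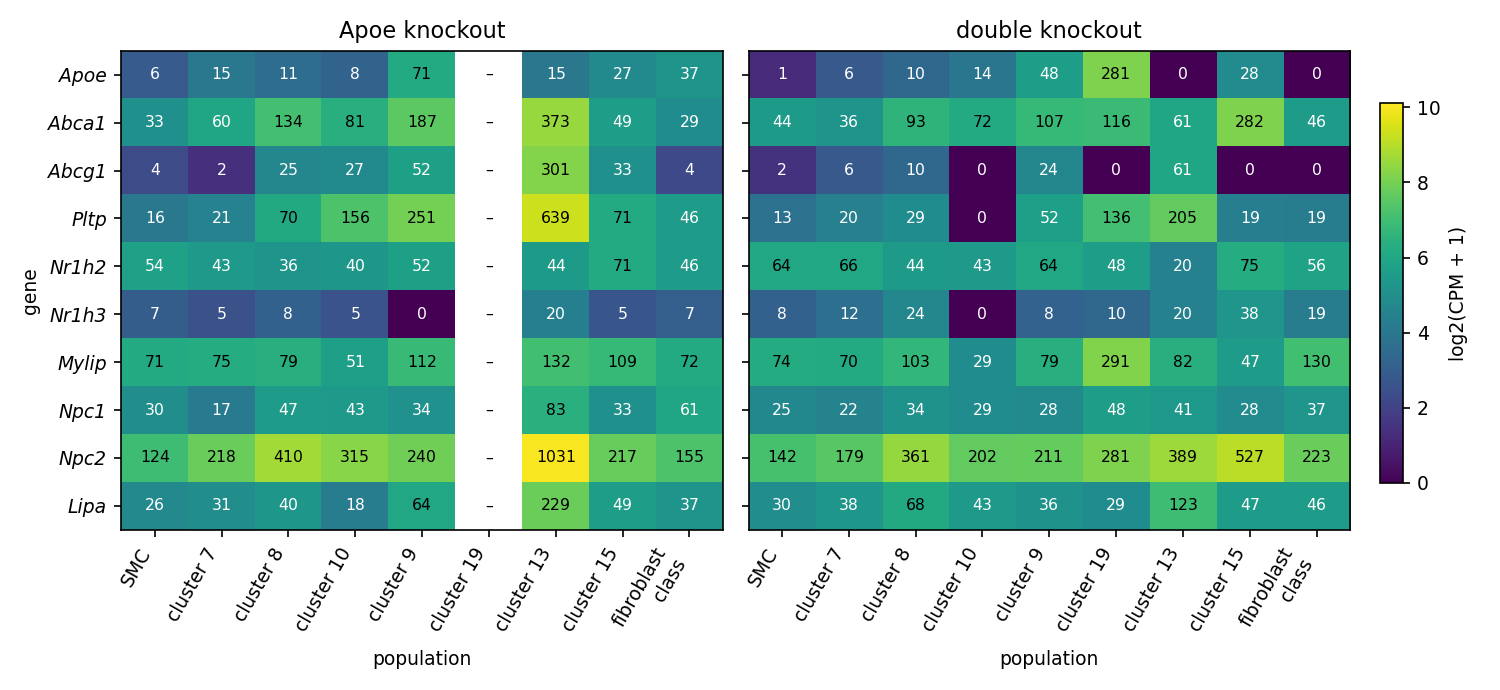
Level of each gene (rows) in each population (columns) for the Apoe knockout (left) and the double knockout (right). Numbers are CPM, the colour is log2(CPM + 1), and a dash marks cluster 19 of the Apoe knockout with under 20 cells. Abca1, Abcg1, Pltp, Npc2 and Lipa are brightest in cluster 13 of the Apoe knockout, and Apoe and Mylip in cluster 19 of the double knockout.

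Over the whole libraries 0 of the 10 members were higher and 2 were lower in the double knockout, where 9.53% of all genes tested were called higher and 13.1% lower. The 2 were Abcg1 and Pltp. Abcg1 went from 386 UMIs (29.0 CPM) to 26 (3.79 CPM), a ratio of 0.131 (0.0843 to 0.195). Pltp went from 1008 UMIs (75.8 CPM) to 134 (19.6 CPM), a ratio of 0.258 (0.214 to 0.309). These sums carry the share of each cell population. With clusters weighted by their mean share of UMIs the ratios were 0.268 (0.157 to 0.457) for Abcg1 and 0.444 (0.349 to 0.563) for Pltp, both still lower. Abca1 was at 74.3 and 53.0 CPM, a ratio of 0.713 (0.630 to 0.804), which is inside the 1.5-fold rule, and 0.624 (0.532 to 0.729) over cells of 1000 or more UMIs whose mitochondrial share was below 10%, which is past it.

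**Figure D3:**
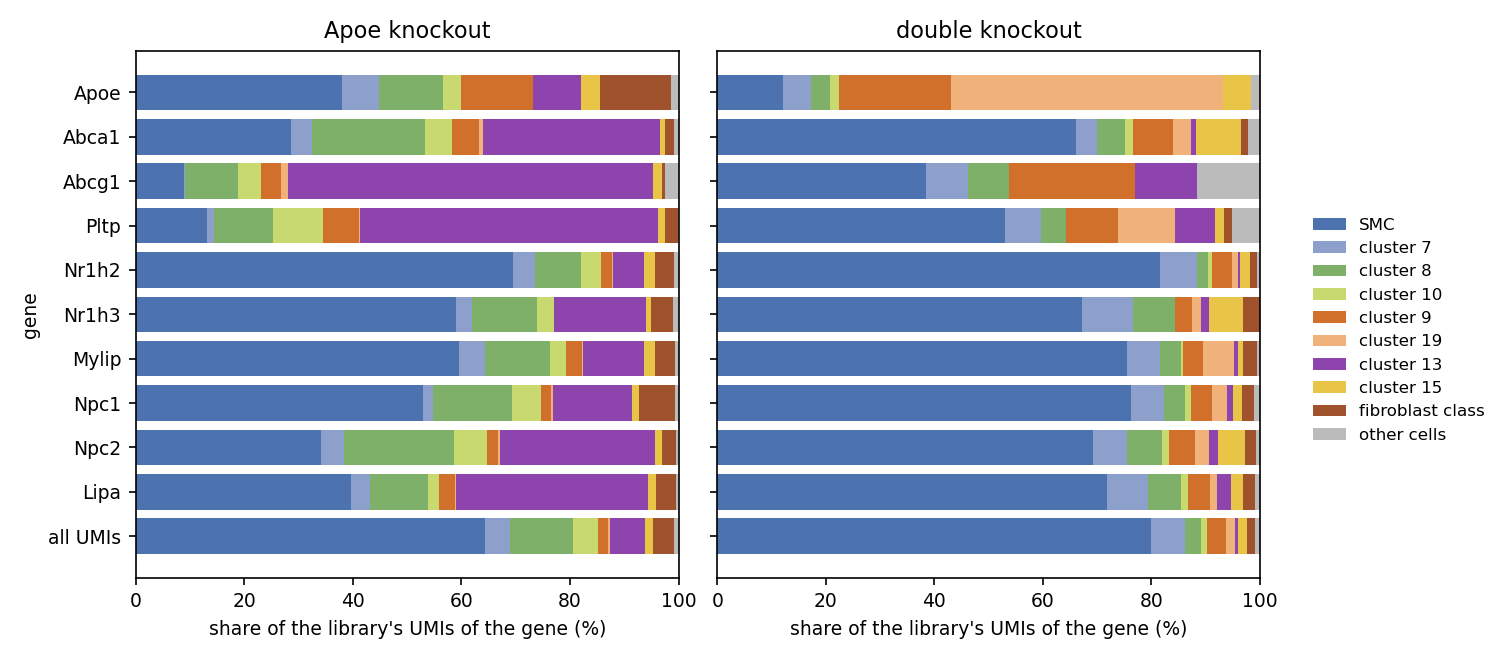
Share of each gene's UMIs (x axis, percent) supplied by each population, for the Apoe knockout (left) and the double knockout (right). The lowest bar gives the share of all UMIs. Cluster 13 (purple) supplies 67.4% of Abcg1 in the Apoe knockout, and cluster 19 (light orange) 50.0% of Apoe in the double knockout.

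Within cluster 13, 4 of the 8 members with enough UMIs were lower in the double knockout and 0 were higher, against 6.1% of genes tested called lower and 8.33% higher. Of the 5537 genes tested 1358 had at least 100 UMIs, so the 6.1% is not a share at the depth of the 4 called members. Abca1 went from 323 UMIs (373 CPM) to 3 (61.5 CPM), a ratio of 0.165 (0.0338 to 0.485). Abcg1 went from 260 UMIs (301 CPM) to 3 (61.5 CPM), a ratio of 0.204 (0.0419 to 0.604). Pltp went from 553 UMIs (639 CPM) to 10 (205 CPM), a ratio of 0.320 (0.153 to 0.594). The lysosomal carrier Npc2 went from 892 UMIs (1031 CPM) to 19 (389 CPM), a ratio of 0.377 (0.226 to 0.593). Over the 6 members with at least 100 UMIs the median log2 ratio was -1.52, beside -0.26 over the 1358 genes of that depth. With each cell thinned to 500 UMIs, Abcg1 (0.247, 0.0282 to 1.0) and Pltp (0.466, 0.160 to 1.12) no longer met the rule, since fewer UMIs were left. Scaled to the median gene, all 4 stayed lower, while over all genes the calls went from 461 higher and 338 lower to 635 and 233. A planned filter kept cells with at least 1 UMI of C1qa, C1qb or C1qc, 118 and 27 cells, and all 4 stayed lower. The ratios were 0.296 (0.0607 to 0.873) for Abca1 and 0.249 (0.0300 to 0.910) for Abcg1. For Pltp the ratio was 0.445 (0.191 to 0.884) and for Npc2 0.331 (0.151 to 0.631). The macrophage markers moved with these genes. The 11 markers summed to 21089 CPM in the Apoe knockout and 5346 CPM in the double knockout, where Adgre1 and Fcgr1 were at 0, and the 10 smooth muscle markers to 13566 and 39043 CPM.

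Set against the macrophage markers of the same cells, a scaling chosen after seeing the data, none of the 4 met the rule. Per 1000 marker UMIs, Abca1 was at 17.7 and 11.5 UMIs, a ratio of 0.649 (0.133 to 1.91), and Abcg1 at 14.3 and 11.5, a ratio of 0.806 (0.165 to 2.38). Pltp was at 30.3 and 38.3, a ratio of 1.26 (0.603 to 2.34), and Npc2 at 48.9 and 72.8, a ratio of 1.49 (0.892 to 2.34). The direction for Pltp and Npc2 thus turned with the scaling. The double knockout had 261 marker UMIs there against 18241, which sets the width of these intervals. Fewer macrophages per cluster 13 barcode and less of each transcript per macrophage cannot be told apart.

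**Figure D4:**
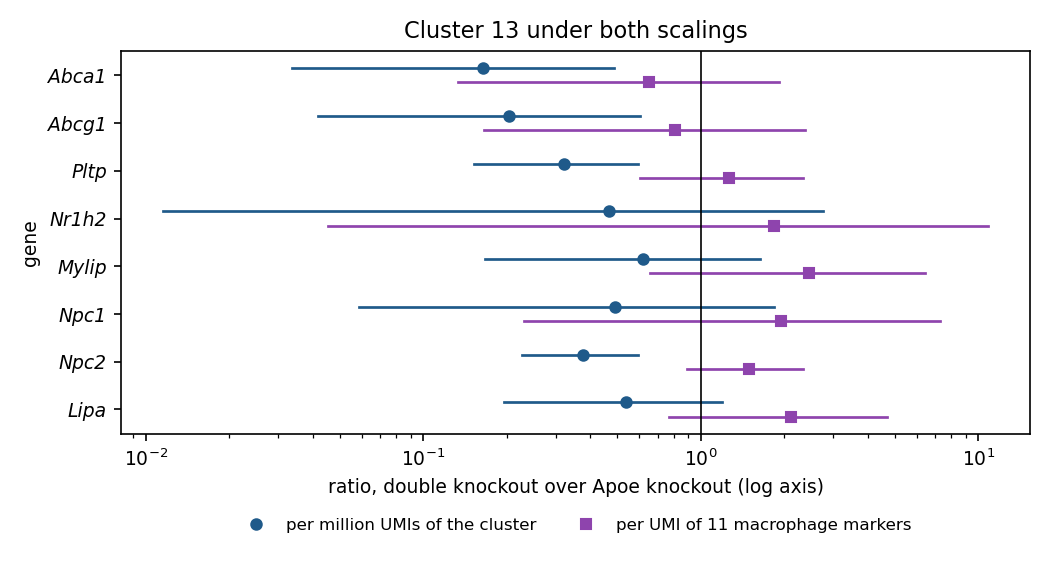
Ratio of double knockout over Apoe knockout (x axis, log scale) in cluster 13 for the 8 members with at least 20 UMIs. Blue circles are scaled to all UMIs of the cluster and purple squares to the UMIs of 11 macrophage markers, and bars are 95% counting intervals. Abca1 moves from 0.165 to 0.649 and Npc2 from 0.377 to 1.49.

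Endothelial cluster 9 had 2 of 8 members lower and 0 higher (8.79% of genes tested lower, 7.2% higher). Pltp went from 67 UMIs (251 CPM) to 13 (51.7 CPM), a ratio of 0.206 (0.104 to 0.376). Abca1 went from 50 UMIs (187 CPM) to 27 (107 CPM), a ratio of 0.573 (0.345 to 0.933). Over cells with no UMI of the macrophage genes the Abca1 ratio was 0.460 (0.239 to 0.908), a value chosen after seeing the data. It was past the rule no longer in 3 of 6 alternatives: 0.470 (0.194 to 1.18) with cells thinned to 500 UMIs, 0.507 (0.183 to 1.23) at 1000 UMIs, and 0.523 (0.226 to 1.08) over cells of 1000 or more UMIs whose mitochondrial share was below 10%. Pltp was lower in all 5 alternatives that gave a ratio, at 0.112 to 0.383. The filter on macrophage UMIs was not among these 5. It left 20 and 278 cells, in which Pltp fell under the minimum of 20 UMIs. The macrophage marker sum in cluster 9 was 2277 CPM in the Apoe knockout and 43.7 CPM in the double knockout, where Lyz2 and C1qa were at 0, and the part of this RNA in the Pltp ratio was not tested. In cluster 19 of the double knockout Pltp stood at 136 CPM (74.2 to 228) and Abcg1 had 0 UMIs, which allows up to 35.8 CPM.

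In the SMC cells 2 of 10 members were lower and 0 higher (7.67% of genes tested lower, 9.87% higher). Beside Apoe this was Abcg1, with 34 and 10 UMIs (3.97 and 1.82 CPM), a ratio of 0.459 (0.202 to 0.951). It was 0.634 (0.261 to 1.45) over cells with no UMI of the macrophage genes, a ratio added after seeing the data, and 0.519 (0.193 to 1.2) over cells of 1000 or more UMIs whose mitochondrial share was below 10%, and it met the rule in neither. Abca1 was at 32.9 and 43.8 CPM, a ratio of 1.33 (1.11 to 1.58), and Pltp at 15.5 and 12.9 CPM, a ratio of 0.834 (0.616 to 1.12). The other 6 members had ratios of 0.826 to 1.19. The median log2 ratio was 0.19 over 8 members and 0.03 over 8924 genes of at least 100 UMIs.

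**Figure D5:**
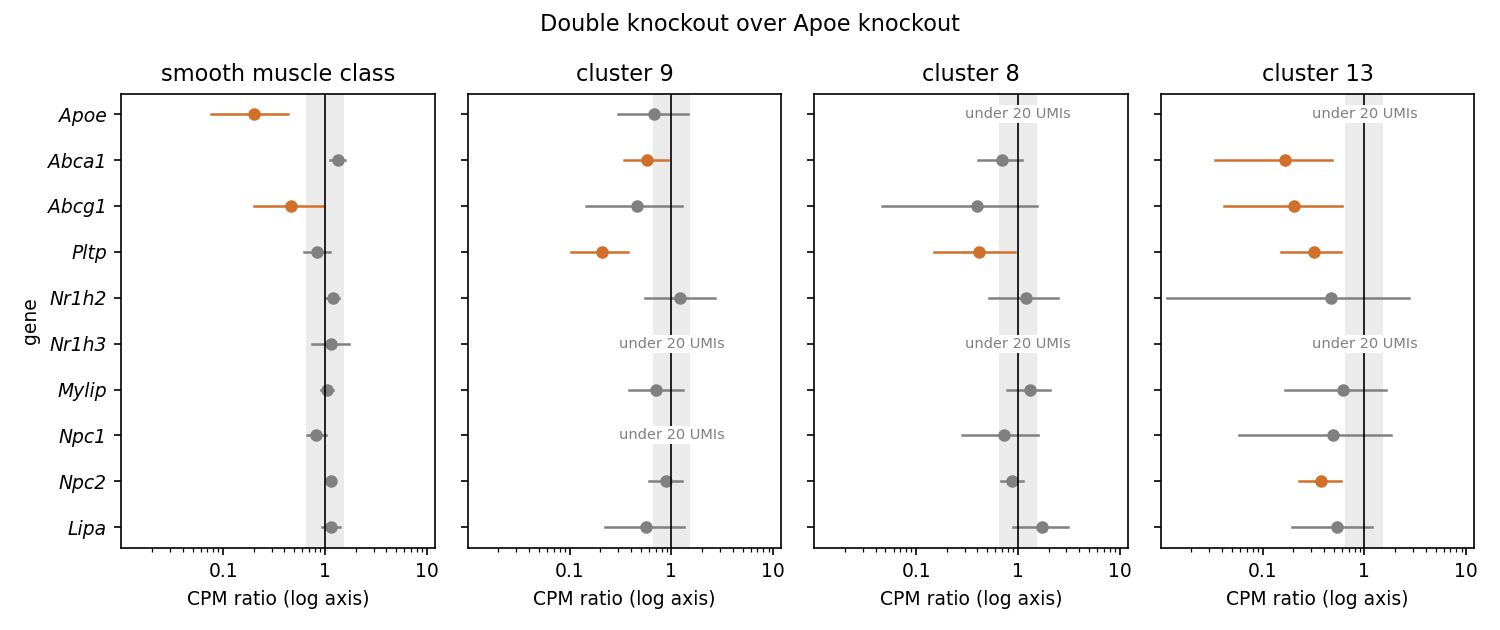
Ratio of CPM in the double knockout over the Apoe knockout (x axis, log scale) for the 10 genes in 4 populations, with 95% counting intervals. Orange marks genes past the size rule, grey the others, and the grey band the range inside 1.5-fold. Apoe lies at 0.199 in smooth muscle, Pltp at 0.206 in cluster 9, and 4 genes of cluster 13 lie between 0.165 and 0.377.

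Pltp was also lower in 2 clusters of the deposited modEC class. In cluster 8 it went from 108 UMIs (70.2 CPM) to 6 (29.3 CPM), a ratio of 0.417 (0.15 to 0.938). It was 1 of 8 members lower, with 0 higher, beside 5.38% of genes tested called lower and 7.98% higher. Over cells of cluster 8 with no macrophage UMI the ratio was 0.456 (0.159 to 1.07), outside the rule. In cluster 10 Pltp went from 94 UMIs (156 CPM) to 0, at least 3.61-fold lower against the floor of 3 UMIs. It was 1 of 6 members lower, with 0 higher, beside 4.74% of genes called lower and 7.44% higher. The macrophage markers summed to 1360 and 101 CPM in cluster 10 and to 523 and 14.6 CPM in cluster 8. Other markers differed as well: the fibroblast markers summed to 18474 and 1977 CPM in cluster 10 and to 23940 and 8145 CPM in cluster 8, and the chondrocyte markers to 29600 and 418 CPM and to 8057 and 747 CPM. The part of these differences in the Pltp ratios was not tested. Cluster 7 had 0 of 7 members called (7.19% of genes lower, 6.72% higher) and the fibroblast class 0 of 8 (5.56% lower, 6.26% higher).

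Cluster 15 was the one population with members higher in the double knockout: Abca1 and Npc2, 2 of 4 with enough UMIs, beside 14.3% of genes tested called higher and 22.7% lower. Abca1 went from 9 UMIs (48.9 CPM) to 30 (282 CPM), a ratio of 5.77 (2.67 to 13.8). Npc2 went from 40 UMIs (217 CPM) to 56 (527 CPM), a ratio of 2.42 (1.59 to 3.73). Over cells with no macrophage UMI the Npc2 ratio was 18.4 (3.17 to 739.6). That filter left 17 Apoe knockout cells, under the minimum of 20 cells. With cells thinned to 500 UMIs the Npc2 ratio was 2.29 (0.890 to 6.57), outside the rule. Scaled to the median gene, both stayed higher, while the calls over all genes went from 350 higher and 556 lower to 528 and 259. The markers of the cluster differed between the libraries. Its 7 adipocyte markers summed to 353 CPM in the Apoe knockout, where 6 of them were at 0, and to 59981 CPM in the double knockout with all 7 present. Macrophage markers summed to 2805 and 65.9 CPM. The part of this make-up in both ratios was not tested.

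Of the LXR receptors, Nr1h2 was level across clusters and Nr1h3 was sparsely detected. Nr1h2 was at 49.7 CPM (661 UMIs) in the Apoe knockout and 62.5 CPM (428 UMIs) in the double knockout, a ratio of 1.26 (1.11 to 1.42). In the Apoe knockout its 19 clusters ran from 36.4 CPM in cluster 8 to 70.7 CPM in cluster 15, and no cluster's interval lay above another's. Nr1h3 was at 7.52 CPM (100 UMIs) and 9.34 CPM (64 UMIs), a ratio of 1.24 (0.893 to 1.72). It was highest in cluster 13 of the Apoe knockout with 17 UMIs at 19.7 CPM (11.4 to 31.5), above 2 clusters, while the other intervals met it. Nr1h2 was not called in any of the populations, and Nr1h3 was not called in the whole libraries or SMC cells and had under 20 UMIs in the others.

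Mylip, which encodes the LXR-induced ubiquitin ligase that degrades the LDL receptor, was at 76.2 CPM (1014 UMIs) and 78.1 CPM (535 UMIs), a ratio of 1.02 (0.921 to 1.14). It was not called in any population. In the double knockout it shared its peak with Apoe: cluster 19 held 30 Mylip UMIs at 291 CPM (196 to 415), above the intervals of 17 of 18 clusters. Cluster 14 came next with 15 UMIs at 118 CPM (65.9 to 194). In the Apoe knockout cluster 13 led at 132 CPM (109 to 158), and cluster 9 followed at 110 CPM (74.4 to 158), whose interval met it.

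The lysosomal genes followed cluster 13 too. Npc2 stood at 1031 CPM there in the Apoe knockout (965 to 1101), followed by cluster 8 at 410 CPM (378 to 443), and the median cluster was at 136 CPM. Lipa stood at 229 CPM in cluster 13 (198 to 263), above the 18 other clusters with at least 30 cells, with a median cluster of 28.5 CPM. Npc1 led there as well at 83.2 CPM (65.1 to 105), but its interval met those of clusters 2, 14, 15 and 18. Over the whole libraries Npc2 was at 235 and 165 CPM, a ratio of 0.702 (0.655 to 0.752). Lipa was at 42.2 and 33.1 CPM, a ratio of 0.784 (0.669 to 0.916), and Npc1 at 37.1 and 26.4 CPM, a ratio of 0.713 (0.598 to 0.847). None of these 3 reached 1.5-fold over the whole libraries, but Npc1 did with cells thinned to 1000 UMIs (0.561, 0.395 to 0.788) and Npc2 over cells of 1000 or more UMIs whose mitochondrial share was below 10% (0.626, 0.574 to 0.682). In cluster 13 Lipa had 198 and 6 UMIs, a ratio of 0.537 (0.195 to 1.19). Npc1 had 72 and 2 UMIs there, a ratio of 0.492 (0.0585 to 1.84). Neither gene was called, and with few double knockout UMIs both intervals ran from past 1.5-fold lower to above 1.

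Across the 19 clusters with at least 30 Apoe knockout cells, log2(CPM + 1) of Abca1, Abcg1, Pltp and Npc2 had pairwise Pearson r of 0.80 to 0.86, and of 0.64 to 0.76 over the 18 clusters without cluster 13. Nr1h2 had r of -0.39 to 0.05 with every other member. These clusters share 1 library and differ in depth, so the values are descriptions. Leaving out cluster 13 does not leave out macrophage RNA. In the Apoe knockout the 11 macrophage markers summed to 2277 CPM in cluster 9, 2805 in cluster 15 and 1360 in cluster 10, against 95.7 in SMC cells. Among 9106 genes the closest to Abcg1 were Ctss (0.92), Unc93b1 (0.91) and Trem2 (0.91), the last a lipid receptor of macrophages. Nearest to Abca1 were Syk (0.90), Ctsh (0.89) and Ftl1 (0.88). Pltp lay closest to Nckap1l (0.92), Blnk (0.92) and Fcgr3 (0.92), an Fc receptor of myeloid cells. Npc2 was matched by Atox1 (0.94), Ftl1 (0.91) and Sh3bgrl3 (0.91), and Lipa by Zeb2 (0.94), Selplg (0.92) and Rsad2 (0.91). For Npc1 the nearest were Lpin2 (0.91) and Kdm7a (0.83), and for Mylip Nek6 (0.79), Spty2d1 (0.76) and Sema4d (0.76). Apoe lay nearest to Dipk1a (0.87), Grina (0.85) and Mcm3 (0.85), and Nr1h3 to Dr1, St6galnac6 and Mta3 (0.86 to 0.87), both from low counts. For Nr1h2 the values were lower, with Btc first (0.76) and then Tceal6 (0.71) and Mertk (0.71).

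The rest of the pathway was read from 9 lists. Over all genes tested in SMC cells 7.67% were called lower and 9.87% higher. There, cholesterol synthesis had 4 of 18 genes lower and 0 higher, among them genes of the later, post-squalene steps. Cyp51 was at 52.8 and 30.1 CPM, a ratio of 0.570 (0.474 to 0.683), and Dhcr7 at 5.49 and 1.64 CPM, a ratio of 0.299 (0.129 to 0.617). The ratio was 0.562 (0.348 to 0.884) for Lss. The list's median log2 ratio was -0.34 over 16 genes of at least 100 UMIs. Of 18 genes of lysosomal release and sterol carriage 2 were higher and 0 lower: the lysosomal membrane protein Scarb2 (1.66, 1.50 to 1.83) and the sterol carrier Gramd1a (1.54, 1.21 to 1.96), a share near that of all genes. Of 12 LXR receptors, partners and cofactors, the coactivator Ncoa1 was lower (0.653, 0.544 to 0.782) and 0 were higher, again a share near that of all genes. LXR targets had 1 of 11 lower, Abcg1, and the lists of apolipoproteins and efflux transporters moved only by Apoe (1 of 2) and Abcg1 (1 of 5). Lipases and lipid transfer (2 genes with enough UMIs), esterification (5) and uptake receptors (4) had 0 called.

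In cluster 13, where 6.1% of all genes tested were called lower and 8.33% higher, the lysosomal list had 6 of 15 genes lower and 0 higher. Beside Npc2 these included the cathepsins Ctsb (5214 and 1188 CPM, ratio 0.228) and Ctsd (2555 and 655 CPM, 0.257), the saposin precursor Psap (0.294) and the membrane protein Lamp2 (0.279). LXR targets had 3 of 9 lower, with Arl4c at 185 and 0 UMIs, at least 3.48-fold lower. The lipase Lpl (0.437, 0.159 to 0.966), the lipid droplet coat Plin2 (0.211, 0.0770 to 0.462) and the receptor Lrp1 (0.282, 0.0908 to 0.665) were lower too. Lipases and lipid transfer thus had 2 of 2 genes lower, esterification 1 of 4 and uptake receptors 1 of 4, beside 2 of 3 efflux transporters and 0 of 1 apolipoprotein. Genes higher there were Hmgcs1 (3.35, 1.26 to 7.62) and Fdps (5.21, 1.50 to 14.7) of cholesterol synthesis, 2 of 6, and the lipoprotein receptor Vldlr (5.17, 1.88 to 12.4). Of 10 LXR receptors, partners and cofactors in cluster 13, 0 were called in either direction. The macrophage marker sums given above moved with these lists as well.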

How the data were processed

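The 2 libraries were prepared with 10x Genomics 3' tags per the labels' protocols, which also name CD31 microbeads although the cell type label gives all cells. Per the submitters' processing notes, Cell Ranger, Seurat and mm10 were used; versions and settings are not given in the sources used here. All values in the deposited table are counts, UMIs per cell and gene, made by the authors with no scaling. The mitochondrial share that the authors deposited per cell is a fraction. Class and cluster are deposited labels of another kind, set by the authors. Of 10345 deposited entries, 2428 Apoe knockout barcodes occurred in 2 identical copies, and each barcode was used once (7917 cells). Doublets were not removed.

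UMIs were summed per population and scaled to 1000000 UMIs (Python 3.11.15, NumPy 2.4.6, SciPy 1.17.1, pandas 2.3.3). Levels carry exact Poisson, ratios exact conditional binomial and shares of cells Clopper-Pearson intervals, at 95%. No p-value was made, since cells are not replicates, and the code was tested on simulated data. A count of 0 was set to a floor of 3 UMIs over the population for bounds. Populations needed 20 cells in each library, except that cluster 15 was kept with 17 Apoe knockout cells under the filter on macrophage UMIs. Cluster 19 had too few Apoe knockout cells. Named genes were the 10 members, up to 4 others per pathway list past the size rule in SMC cells and cluster 13, the 3 genes closest in pattern (pseudocount 1 CPM, at least 100 UMIs), Epn1 and Epn2; some genes that this rule selects are not reported here. Members and lists were chosen with earlier results of these data known. Alternatives were other scalings, cell filters, thinning to 1000 or 500 UMIs per cell, a 2-fold rule, no UMI minimum, and cells without macrophage UMIs. Promoters are RefSeq's and gene positions GENCODE's, on GRCm38.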

Additional observations from a re-analysis of the deposited data

Results flagged for a closer look

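Abca1 and Npc2 were called in opposite directions in different populations. The Abca1 ratio, double knockout over Apoe knockout, was 0.573 in cluster 9 and 0.165 in cluster 13, and 5.77 in cluster 15. The Npc2 ratio was 0.377 in cluster 13 and 2.42 in cluster 15. Scaled to macrophage markers, cluster 13 gave 1.49 (0.892 to 2.34) for Npc2 and 0.649 (0.133 to 1.91) for Abca1, neither past the size rule. Over cluster 13 cells with at least 1 UMI of C1qa, C1qb or C1qc the ratios were 0.331 for Npc2 and 0.296 for Abca1, both past it. With 1 library per genotype the difference between populations was not tested. Cluster 15 held adipocyte markers at 353 CPM in the Apoe knockout and 59981 CPM in the double knockout, and their part in it was not tested.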

How the results depend on the processing

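Of 14 member ratios past the size rule, 12 kept their direction in every alternative run and 6 also stayed past the rule. The exceptions in direction were Pltp (1.26) and Npc2 (1.49) in cluster 13 scaled to macrophage markers. Chosen after seeing the data were this scaling, leaving out cluster 19 or its 2 highest cells, and leaving out cells with macrophage UMIs for the ratios of single members other than Apoe in SMC cells and cluster 9. The 4 members lower in cluster 13 became 0 under that scaling and 2 with cells thinned to 500 UMIs. They stayed 4 over cells with at least 1 UMI of C1qa, C1qb or C1qc. The 2 lower in SMC cells became 1 over cells of 1000 or more UMIs with a mitochondrial share below 10%, 1 over cells with no macrophage UMI, and 0 with cells thinned to 1000 or to 500 UMIs, where fewer UMIs were left. The Apoe ratio of the whole libraries became 0.411 at 500 UMIs per cell, 0.393 without cluster 19 and 0.582 with clusters weighted by their mean share of UMIs, all past the rule. It was 0.924 at 1000 UMIs per cell and 1.0 over cells of 1000 or more UMIs with a mitochondrial share below 10%. Apoe in SMC cells stayed between 0.158 and 0.20 in the 5 alternatives that gave a ratio. Of 55 ratios not called, 6 were called in at least 1 alternative, among them Lipa in cluster 8 (2.34) and Npc2 in cluster 10 (0.504) over cells with no macrophage UMI. Scaling to the median gene shifted log2 ratios by over 0.1 in cluster 13 (median -0.26) and cluster 15 (-0.43), and no call of a member was lost there by it. No Apoe ratio was formed in cluster 13, and cluster 13 was not run at 1000 UMIs, where 15 double knockout cells were left. No paired analysis was possible because each genotype had 1 library.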
